A study of Mus musculus with 23 samples.

Results

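T and NK cells were examined among brain cells sorted by how much of a fluorescent antibody they carried. They were chosen as barcodes with at least 500 genes, at least 800 UMIs (molecules counted once each) and at most 10% mitochondrial UMIs that had a UMI of at least 3 of 8 lymphocyte genes (Trbc2, Cd3d, Cd3g, Skap1, Ms4a4b, Nkg7, Ccl5 and Ltb) and more UMIs of these than of 7 genes of other cells (Cldn5, Flt1, Aqp4, Gja1, Cx3cr1, P2ry12 and Cd79a). The rule found 268 cells among 249715 kept barcodes, 83 from ATV-TfR, 148 from ATV-CD98hc and 37 from mice given control IgG. Since the cells were chosen by the UMIs of these 15 genes, the levels of those genes describe the choice and are not results.

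An ATV (antibody transport vehicle) is an engineered antibody able to cross capillary walls of the brain by binding a receptor on them. The agents, all coupled to the far-red dye AF647 and given into the tail vein at 45 mg/kg, were DNP02_hIgG1_LALAPG_ATV35.23.2 in TfR mu/hu KI mice (ATV-TfR), DNP02 LALAPG LLB2-10-8 monovalent in CD98hc mu/hu KI mice (ATV-CD98hc) and DNP02_hIgG1_LALAPG in C57BL/6 mice (control IgG). Treatment and genotype thus cannot be told apart. The age of the mice is given as 3.3 months and also as 12 weeks. The mice were perfused 24 hours after the dose. Brains without olfactory bulbs, cerebellum, pons and medulla were taken apart under inhibitors of transcription and of translation. The cells were then sorted, live, as negative, low, medium or high in AF647. Positive cells of ATV-TfR mice were cut into tertiles, and their gates served all treatments. Every treatment had 2 pools of 1 male with 1 female mouse, sequenced as 1 library for each bin. The control IgG negative bin has 1 library, so 23 libraries form 12 groups. Because the bins of a pool share animals, a p-value over libraries measures the spread between libraries and not between independent mice.

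T cells carry an antigen receptor joined to the CD3 chains, and CD8 T cells and NK cells kill target cells with granzymes and perforin. In a healthy brain few of them are found, mostly along vessels, in the meninges and choroid plexus, and some reside in the tissue. The transferrin receptor (gene Tfrc) brings iron into cells and is raised in dividing lymphocytes. CD98hc (gene Slc3a2) pairs with amino acid transporters such as Slc7a5 and is raised in activated T cells.

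Genes outside the rule bore out the label for most of the cells. At least 1 of 8 further T and NK genes (Trac, Trbc1, Cd3e, Cd247, Lck, Cd2, Klrd1 and Klrk1) had a UMI in 92.9% of the cells and at least 2 in 89.9%, against 40.2% and 2.38% of 336 B cells (Cd2 alone in 36.6%) and 0.746% and 0.0400% of 112517 endothelial barcodes. Median depths were 3452 UMIs in T and NK cells, 2338 in B cells and 3514 in endothelial barcodes. Among genes with at least 100 UMIs in these cells, the 15 outside the rule with the highest ratio of their level in these cells to that in all other barcodes were Gzma, Xcl1, Cd8a, Gzmb, Klra9, Cd3e, Trbc1, Ncr1, Klra7, Cd8b1, Gm2682, Il2rb, Klrb1c, Klra4 and Klre1, most of which are T cell receptor and coreceptor genes, NK receptors and effector genes. At the edge of the rule, 37 cells had exactly 3 of the 8 genes of the rule and 48.6% of them had at least 2 of the further genes. Another 34 barcodes that had 2 of the 8 rule genes, and more UMIs of these than of the 7 other genes, were left out, with 17.6%. A further 37 barcodes had at least 3 of the 8 rule genes but as many or more UMIs of the 7 other genes. Their median of 6848 UMIs was higher and 70.3% of them had at least 2 of the further genes. Most of them lay in the positive bins of ATV-CD98hc and none in the negative bins of the ATV mice. Of the 268 cells, 16 share a barcode sequence with a barcode of another library and none with another T or NK cell, and 1 also meets the rule for B cells (at least 3 of 8 B cell genes). The only cell of the control IgG medium bins had 293 UMIs of neutrophil markers among 2251. It had 0 UMIs of 7 T or NK markers outside the rule, so its label is doubtful. This cell is 1 of the 7 of control IgG pool 1. It also counts among the cells with few UMIs of other cells used below, as that measure holds no neutrophil genes.

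Kept barcodes numbered 3467 to 20570 per library in the ATV mice and 526 to 12167 in control IgG, with 1861238 to 90307818 UMIs. Endothelial barcodes (a UMI of at least 2 of Cldn5, Flt1, Slco1a4, Cdh5 and Egfl7, and more than 3 UMIs of these in all) made up 1.53% to 2.11% of the negative bins of the ATV mice and 94.0% to 96.3% of their high bins. In ATV-TfR they were 2.87% and 1.74% of the low and 20.8% and 19.6% of the medium bins. In ATV-CD98hc these were 15.6% and 15.4%, and 88.4% and 88.7%. Control IgG had 26.2% in the negative library, 49.9% and 63.6% in the low, 5.23% and 6.87% in the medium, and 2.09% and 2.21% in the high bins. T and NK shares below are shares of all kept barcodes unless another base is named, so they move with the endothelial fraction too.

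In ATV-TfR mice T and NK cells were found mainly in the AF647-negative bin. They were 0.289% (26 of 8988 barcodes) and 0.376% (25 of 6656) in the 2 pools there, 0.0805% (13) and 0.0388% (7) in the low bins, 0.0374% (6) and 0.0130% (2) in the medium bins, and 0.0102% (2) and 0.0114% (2) in the high bins. Both negative libraries stood above all 6 positive ones. The odds of being a T or NK cell changed by a factor of 0.350 per bin (slope −1.05 in natural log units, exact permutation of bin labels over 8 libraries, 2-sided p = 0.000794, the smallest the design gives, adjusted p = 0.00238 over 3 treatments).

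In ATV-CD98hc mice they were spread more evenly over the lower 3 bins. Their shares were 0.179% (12 cells) and 0.173% (6) in the negative bins, 0.271% (49) and 0.0908% (18) in the low bins, 0.214% (38) and 0.102% (21) in the medium bins, and 0.0192% (2) and 0.0150% (2) in the high bins. The negative, low and medium libraries overlapped, and both high libraries lay below all the others. The factor per bin was 0.517 (slope −0.66, exact permutation p = 0.0238, adjusted p = 0.0357). With labels permuted within each pool, the adjusted p was 0.0521, so the call was lost, and without the high bins the slope was −0.11 (exact permutation, adjusted p = 0.767). Without the comparison with genes of other cells, the low bins held 55 and 21 cells and the medium bins 51 and 25. The high bins then held 5 and 2, the negative bins stayed at 12 and 6, and the slope no longer passed.

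In control IgG mice the cells were few. The negative library held 14 (0.115%), the low bins 6 (0.267%) and 16 (0.414%), the medium bins 1 (0.145%) and 0, and the high bins 0 and 0. Counts of 0 among 801, 526 and 725 barcodes allow shares of up to 0.375%, 0.570% and 0.414% in the medium library of pool 2 and the 2 high libraries. The 2 high libraries summed held 0 of 1251 barcodes, which allows up to 0.240%, below the shares of both low libraries and above that of the negative library. The slope was −0.34 (exact permutation p = 0.230, adjusted p = 0.230). As the medium library of pool 2 and both high libraries held 0 cells, this slope leans on the 0.5 cells added to each count.

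**Figure D1:**
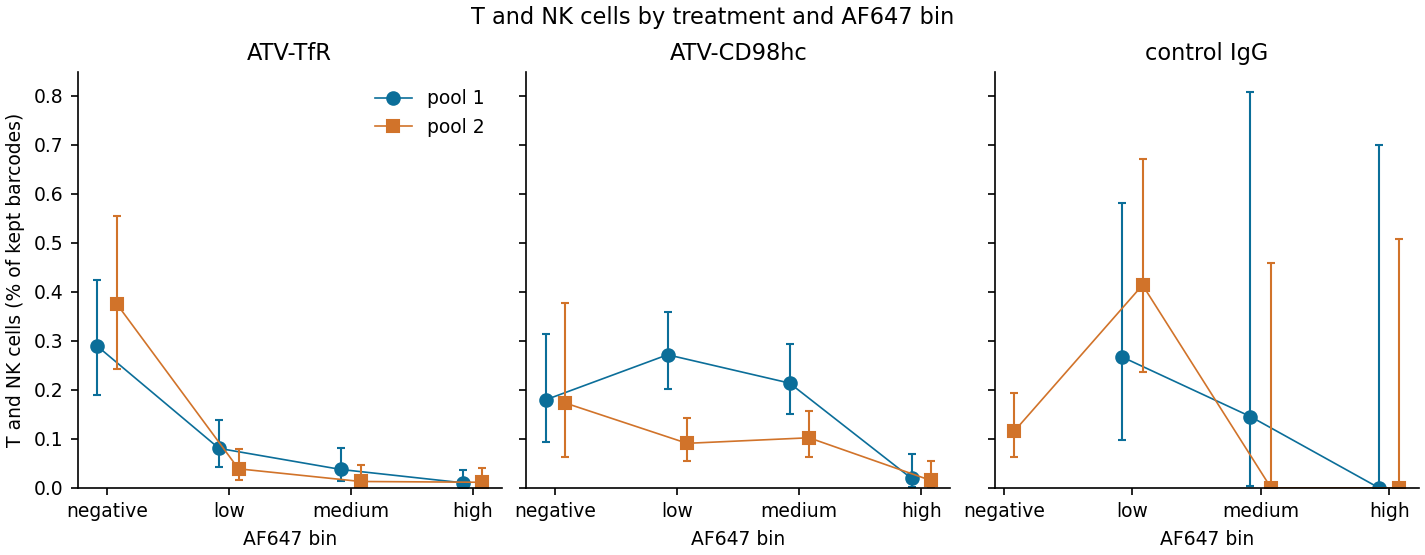
Share of T and NK cells among kept barcodes (y axis, percent) in the 4 AF647 bins (x axis) of each treatment. Circles and squares are the 2 pools and bars are exact 95% binomial intervals, which cover counting error only. The ATV-TfR shares fall from 0.289% and 0.376% in the negative bins to 0.0102% and 0.0114% in the high bins, and the ATV-CD98hc shares stay between 0.0908% and 0.271% up to the medium bin.

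The slopes did not differ between treatments after adjustment. ATV-TfR was steeper than ATV-CD98hc by 0.39 (difference −0.39, exact permutation of treatment labels within bins, p = 0.0448, adjusted p = 0.134 over 3 pairs). The difference from control IgG was −0.70 for ATV-TfR (exact permutation, adjusted p = 0.174) and −0.32 for ATV-CD98hc (exact permutation, adjusted p = 0.299). Both differences share the dependence of the control IgG slope on the added 0.5 cells.

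The slopes depended on the base of the shares. With endothelial barcodes left out of it, and with them the T and NK cells that meet their rule, the picture differed. The ATV-TfR shares were 0.295% and 0.382% in the negative, 0.0829% and 0.0395% in the low, and 0.0394% and 0.00806% in the medium bins, and the high bins held 0 of 894 and 2 of 643 barcodes (0.311%), so the high library of pool 2 lay near the negative ones. In the ATV-CD98hc medium bins the shares on this base were 1.50% (31 cells) and 0.688% (16), above the 0.182% and 0.177% of its negative bins and the 0.289% and 0.107% of its low bins. Its high bins, with 0.318% (2 cells) and 0.163% (1), lay near its negative bins. The control IgG low bins had 0.533% and 1.14% and its negative library 0.156%. Its medium bins held 1 of 652 and 0 of 746 barcodes and its high bins 0 of 515 and 0 of 709. The slope of control IgG thus leans on the 0.5 cells added to each count. Slopes were then −0.35 in ATV-TfR (exact permutation, adjusted p = 0.413), 0.32 in ATV-CD98hc and −0.57 in control IgG (exact permutation, adjusted p = 0.377 for both). On this base the slope of ATV-CD98hc was higher than that of control IgG by 0.89 (exact permutation, adjusted p = 0.0139), a difference in the opposite direction to that over all barcodes. The adjustment covers the pairs of treatments and not the alternative settings.

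B cells, the other lymphocytes in these libraries, gave a base that does not depend on the endothelial fraction. ATV-TfR pools 1 and 2 held 26 and 25 T and NK cells against 1 and 5 B cells in the negative bin, 13 and 7 against 2 and 10 in the low bin, 6 and 2 against 26 and 38 in the medium bin, and 2 and 2 against 7 and 8 in the high bin. T and NK cells thus outnumbered B cells in both negative libraries, and B cells outnumbered them in all 4 medium and high libraries. The log2 ratio of the counts (0.5 added to each) had a slope of −1.85 per bin (exact permutation p = 0.0230, adjusted p = 0.0690), which did not pass after adjustment. In ATV-CD98hc the counts were 12 and 6 against 9 and 0, 49 and 18 against 63 and 31, 38 and 21 against 23 and 16, and 2 and 2 against 2 and 0, with a slope of −0.16 (exact permutation, adjusted p = 0.778). In control IgG the low bins held 6 and 16 T and NK cells against 42 and 41 B cells, and the slope was −0.15 (exact permutation, adjusted p = 0.778). Differences of these slopes between treatments were not tested.

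**Figure D2:**
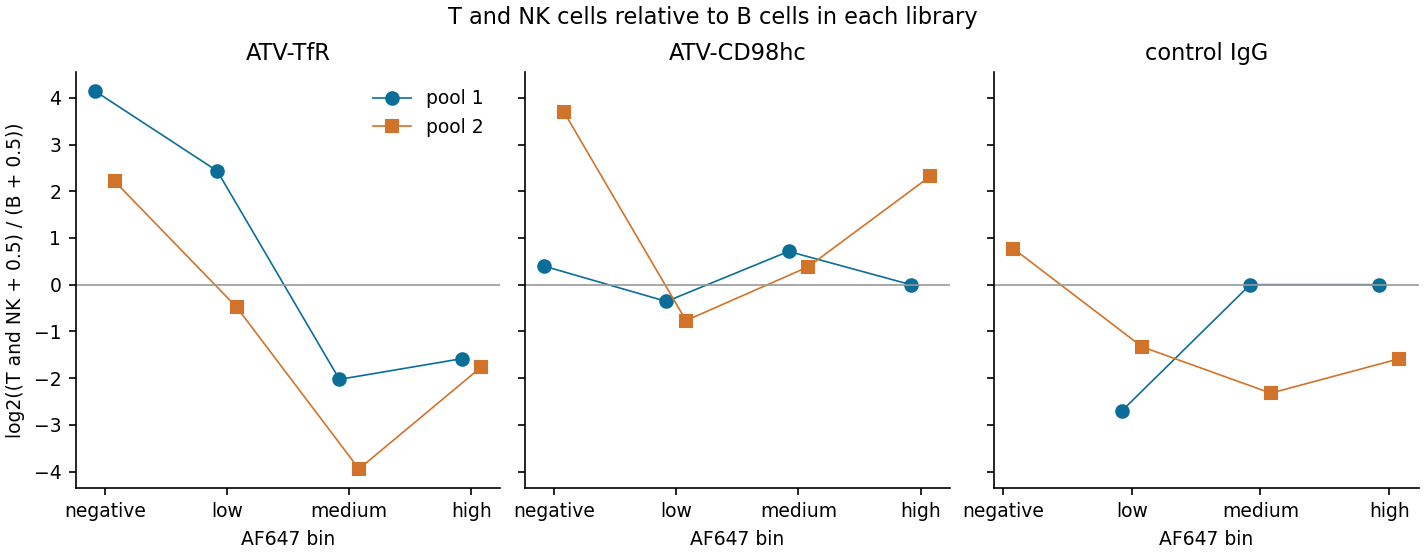
Log2 ratio of T and NK cells to B cells, with 0.5 added to each count (y axis), in the 4 AF647 bins (x axis). Circles and squares are the 2 pools of each treatment. In ATV-TfR the ratio runs from 4.14 and 2.21 in the negative bins to −2.03 and −3.94 in the medium bins, while ATV-CD98hc shows no such order.

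The labels give about 30% AF647-positive cells in ATV-TfR brains, and the tertiles make each positive bin an equal part of them. With these weights and the shares among kept barcodes, 5.95% and 2.34% of the T and NK cells of the 2 ATV-TfR pools would be AF647-positive, against 73.0% and 39.7% of the B cells. These values take kept barcodes per sorted cell as equal between bins. However, about 60000 cells were sorted for each library, per the labels, and the ATV-TfR negative bins gave 8988 and 6656 kept barcodes against 15442 to 19551 in its positive bins. Computed from the cells found per library instead, the values are 10.3% and 5.91% for T and NK cells and 83.3% and 61.5% for B cells. The B cell values rest on 1 and 5 negative cells. In ATV-CD98hc (about 20% positive, bins of unknown size) any division of the positive cells among the bins gives 2.60% to 27.4% and 2.11% to 12.9% for T and NK cells from shares, and 4.00% to 50.5% and 7.69% to 46.7% from cells per library. B cells of its pool 1 have overlapping ranges of 3.44% to 39.3% and 5.26% to 63.6%, and its pool 2 had no negative B cell. In control IgG pool 2 (about 1% positive) the T and NK range is 0 to 3.50% from shares and 0 to 1.14% from cells, and that of B cells 2.07% to 14.0% and 0.126% to 4.92%. The values from cells take about 60000 sorted cells in every library, which was not checked. This pool gave 12167 kept barcodes in the negative bin and 3869, 801 and 725 in the low, medium and high bins.

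By UMIs of subset genes, 82 cells (30.6%, exact 95% interval 25.1% to 36.5%) had Cd3 genes with Cd8a or Cd8b1, 26 (9.70%, 6.44% to 13.9%) had Cd3 genes with Cd4, and 34 (12.7%, 8.95% to 17.3%) had no Cd3 and at least 2 of 8 NK genes. No cell had both coreceptors, 103 had Cd3 genes alone and 23 fitted none of these. By this definition CD8 cells outnumbered CD4 cells in each treatment, 28 to 4 in ATV-TfR, 45 to 16 in ATV-CD98hc and 9 to 6 in control IgG. A CD8 cell could be found by Cd8a or Cd8b1 and a CD4 cell by Cd4 alone, and the 103 cells are unassigned. The counts thus do not give the true ratio of the subsets. Cells that met the NK definition were 14 of 83 (16.9%), 17 of 148 (11.5%) and 3 of 37 (8.11%). This definition rests on the absence of Cd3 UMIs, so a T cell with undetected Cd3 and 2 of the NK genes would meet it too. In 264 cells thinned to 1000 UMIs each the subsets were 54 CD8, 13 CD4 and 33 NK cells, so detection of the coreceptors depended on depth. Among libraries with at least 10 of the cells, none of 9 slopes of a subset over bins passed (exact permutation, adjusted p = 1 in all). Only ATV-CD98hc, with 5 such libraries and a smallest possible p of 0.0333, could have reached 0.05 before adjustment.

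**Figure D3:**
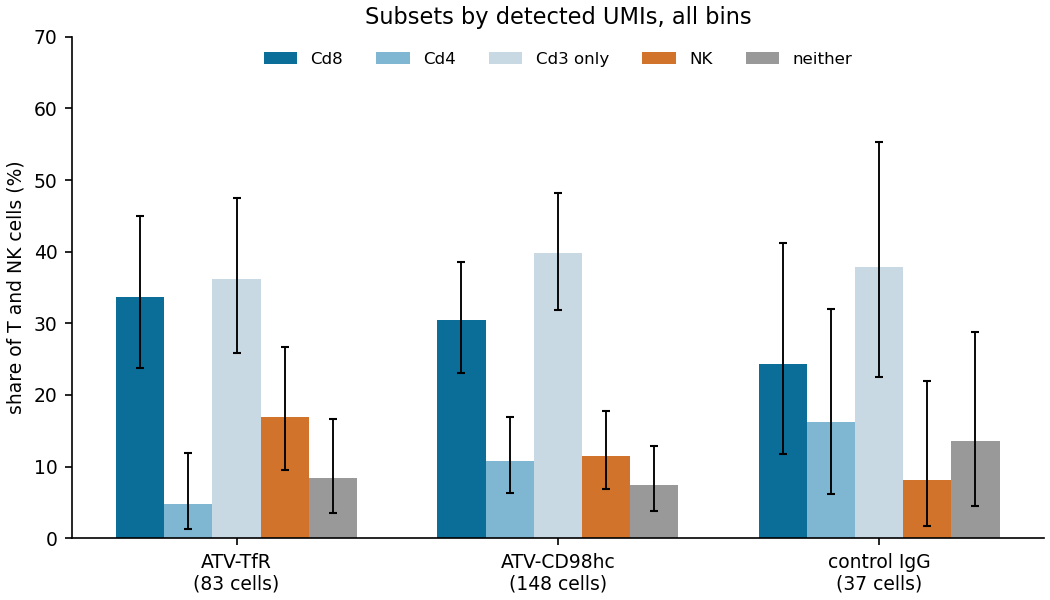
Share of each subset among the T and NK cells of a treatment (y axis, percent; all bins together). Bars are shares and lines are exact 95% binomial intervals, which cover counting error only. Cells with detected Cd8a or Cd8b1 (33.7%, 30.4% and 24.3%) exceed those with detected Cd4 (4.82%, 10.8% and 16.2%) in each treatment, and the intervals of a subset overlap between treatments.

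Genes of tissue residence and effector function were detected in very different shares of the cells. Cxcr6, a chemokine receptor of resident T cells, had a UMI in 53.7% of the cells against 0.298% of B cells and 0.0800% of endothelial barcodes, and Cxcr3 in 36.2%. Xcl1, a chemokine of NK and CD8 cells, was found in 33.6%, Prf1 (perforin) in 18.3%, Gzmb in 10.8% and Gzma in 10.4%. Cd69, an early activation and residence marker, was seen in 17.2% against 13.1% of B cells, Ifng in 10.1%, Pdcd1 in 7.84% and Itgae in 4.48%. Of the genes of circulating cells, Ccr7 was found in 8.96%, against 17.3% of B cells. S1pr1 and Klf2 were found in 29.1% and 36.6% but are endothelial genes as well (70.1% and 92.3% of endothelial barcodes). In the 200 cells with few UMIs of other cells, defined next, the shares were 18.5% and 29.5%. Foxp3, the factor of regulatory T cells, was found in 3 cells.

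RNA of other brain cells was present, much of it in single cells. In ATV-TfR the summed level of 6 endothelial markers outside the rule was 41.0 CPM (counts of a gene scaled to a fixed total of UMIs) in the negative, 194 in the low, 620 in the medium and 1588 CPM in the high bin. A single cell held 18 of the 36 UMIs in the medium and 32 of the 41 in the high bin. In ATV-CD98hc the levels were 71.7, 347, 1485 and 2085 CPM, with 87 of 383 UMIs in 1 of 59 medium cells and 35 of 39 in 1 of 4 high cells. The median cell of every group had 0 to 4.5 UMIs of these genes. The 7 astrocyte markers outside the rule were at 563, 9236, 5732 and 77.5 CPM from the negative to the high bin of ATV-TfR, with 328 of 763 UMIs in 1 low cell and 198 of 333 in 1 medium cell. In ATV-CD98hc they were at 968, 5104, 900 and 53.5 CPM, with 189 of 1249 UMIs in 1 low cell. In control IgG the endothelial markers were at 16.4 and 73.1 CPM and the astrocyte markers at 2894 and 731 CPM in the negative and low bins, with 126 of 177 astrocyte UMIs of the negative bin in 1 cell. The 6 microglial markers reached 1403 CPM in the ATV-TfR negative bin, where 1 cell held 152 of their 274 UMIs, and 51.6 to 172 CPM in the other ATV groups. Of the 268 cells, 68 had more than 5 UMIs of the 25 markers of these lists, the 6 that belong to the rule included, and 200 had at most 5. Scrublet, which looks for droplets with the RNA of a pair of cells, marked 13 of the 268.

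**Figure D4:**
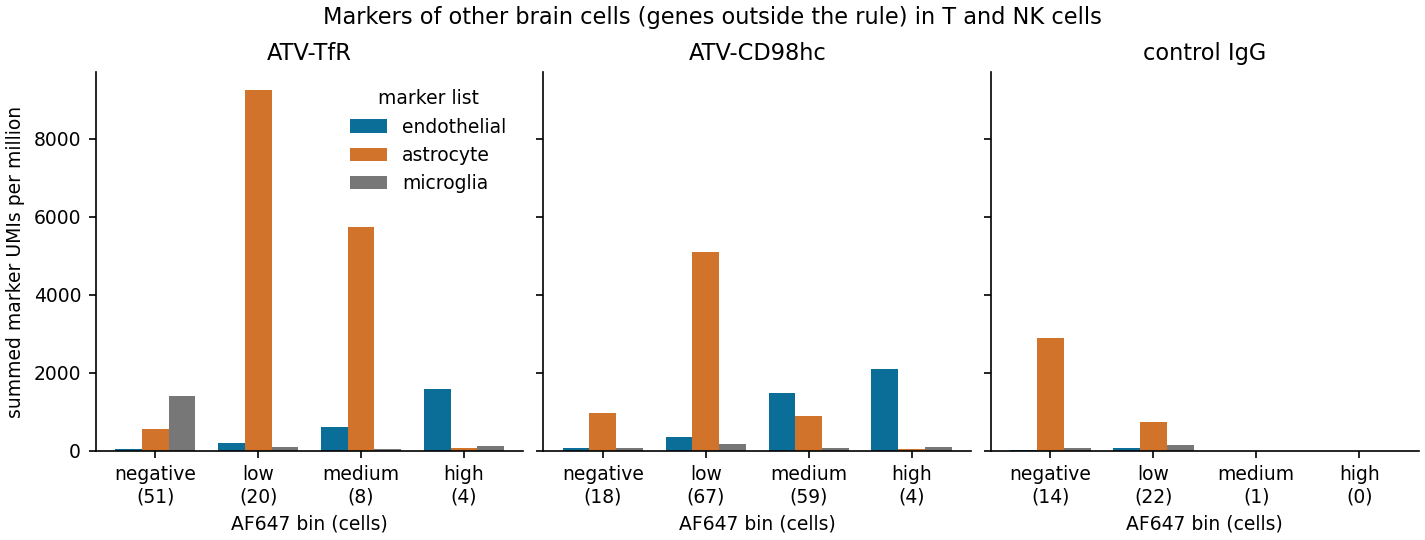
Summed CPM of endothelial, astrocyte and microglia markers outside the rule (y axis) in T and NK cells of each AF647 bin (x axis, number of cells in brackets). The endothelial sum is 41.0 CPM in the negative and 1588 CPM in the high bin of ATV-TfR and 71.7 and 2085 CPM in those of ATV-CD98hc, where 1 of 4 high cells holds 32 of 41 and 35 of 39 UMIs, and the astrocyte sum is highest in the low bins of both.

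Slc3a2 and Tfrc, the genes of the bound receptors, were low in these cells. Slc3a2 (GRCm38 chromosome 19, 8706882 to 8723369, minus strand, GENCODE M21) stood at 146 and 112 CPM in the ATV-TfR pools, 60.1 and 67.6 CPM in the ATV-CD98hc pools and 97.9 and 104 CPM in the control IgG pools. Levels in ATV-TfR were above those in ATV-CD98hc in both pools, by 1.06 ± 0.35 (SE) on the log2 scale, which did not pass (edgeR quasi-likelihood test, adjusted p = 0.416). B cells had 124, 77.7 and 98.6 CPM in the 3 treatments, and all other barcodes 379, 198 and 271 CPM. The ATV-CD98hc mice are CD98hc mu/hu KI and the ATV-TfR mice TfR mu/hu KI. The gene of each bound receptor is thus altered in its own line, and how this bears on its counts was not tested.

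Tfrc (GRCm38 chromosome 16, 32608920 to 32632794, plus strand) gave 5 and 0 UMIs in the ATV-TfR pools, 21 and 11 in the ATV-CD98hc pools and 0 and 1 in the control IgG pools. Summed per treatment this was 13.8 CPM (exact Poisson 95% interval 4.49 to 32.3), 55.5 CPM (37.9 to 78.3) and 6.87 CPM (0.174 to 38.3), against 50.9, 96.1 and 62.1 CPM in B cells. In ATV-CD98hc the level was 0, 28.6, 85.3 and 160 CPM from the negative to the high bin, in the same order as the endothelial markers. With 18 cells in the negative and 4 in the high bins, this order rests on few UMIs. The part of endothelial RNA in it was not tested. In cells with at most 5 UMIs of other cells, 1, 8 and 0 UMIs of Tfrc were left. Between ATV-TfR and ATV-CD98hc, whose mice differ at this gene by genotype, the difference was −2.00 ± 0.97 on the log2 scale (edgeR, adjusted p = 0.853). Slc7a5, the transporter that pairs with CD98hc, was at 44.2, 104 and 55.0 CPM in the 3 treatments and did not pass either (ATV-TfR minus ATV-CD98hc −1.17 ± 0.41, edgeR, adjusted p = 0.525).

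Of the Fc receptor genes, Fcer1g, the signalling chain shared by several Fc and NK receptors, was detected most often, in 67 of 268 T and NK cells (24.0% of the 200 with few UMIs of other cells) and 5.65% of B cells. Fcgr2b, the inhibitory Fc gamma receptor, had a UMI in 1.12% of T and NK cells and in 21.1% of B cells, and Fcgr3 in 3.73% and 1.19%. Fcgrt, which encodes the neonatal Fc receptor, was found in 10.4% of T and NK cells, in 83.2% of endothelial barcodes and in 1.00% of the 200 cells with few UMIs of other cells.

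Expression in positive bins (low, medium and high together) was compared with the negative bin of ATV-TfR on summed UMIs per pool, using sums of at least 20 cells. This left 2 negative sums (26 and 25 cells) and 1 positive sum (pool 1, 21 cells). The positive arm is thus 1 sum that shares its animals with a negative one, and its spread was taken from the negative sums and the positive sums of ATV-CD98hc. In edgeR, 52 genes were higher and 0 lower in positive cells, 1.6% of 3245 tested. Of the 52, 51 were less than 4 times higher in T and NK cells than in other barcodes (98.1%, against 86.9% of the genes tested) and 3 belong to the rule. Outside the rule, 5 of 7 tested astrocyte markers were called (list median 3.19 on the log2 scale against −0.06 over all genes) and 1 of 5 endothelial markers. Gabrb1, a GABA receptor subunit, had 32 UMIs in the positive sum of pool 1 and 0 in both negative sums. Both positive sums of cells with few UMIs of other cells (14 and 7 cells) held 3 and 0 UMIs of Gabrb1. Of the genes tested in the lists of T cell receptor signalling (15), NK receptors (12), cytotoxic effectors (10), circulating and naive cells (7) and residence (6), 0 passed. With doublets removed 8 genes were called, and with sums of at least 10 cells 110.

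Hist1h1b, a histone gene of dividing cells, was the called gene with a level at least 4 times higher in T and NK cells (40 UMIs in the positive sum of pool 1 and 2 in that of pool 2, 0 in both negative sums, all of them in cells with few UMIs of other cells). The call of Hist1h1b was lost in 2 of 11 alternative settings, and how many cells held its UMIs is not given here. Mki67 and Stmn1 were not called with sums of at least 20 cells. Mki67, a marker of cycling cells, had a UMI in 1 of 51 negative, 1 of 20 low, 2 of 8 medium and 1 of 4 high cells of ATV-TfR, with 5.12, 12.1, 293 and 271 CPM. In pool 1 all 13 UMIs of Mki67 came from 1 cell, and in pool 2 the 13 UMIs came from 4 cells. Stmn1, a microtubule gene high in dividing cells, was at 143, 60.5, 1291 and 1782 CPM, with a UMI in 8, 4, 5 and 3 cells. It is also found in 61.0% of endothelial barcodes, and in 12.5% of the 200 cells with few UMIs of other cells against 19.0% of all 268. In the cells with few such UMIs it was at 177, 21.9, 2342 and 2446 CPM (25, 1, 43 and 42 UMIs in 41, 15, 4 and 2 cells). The positive minus negative difference of Stmn1 was 2.19 ± 0.53 (edgeR, adjusted p = 0.0736) and that of Mki67 4.56 ± 2.08 (edgeR, adjusted p = 0.521). Stmn1 passed in 5 of 11 alternative settings, among them sums of at least 10 and of at least 5 cells (edgeR, adjusted p = 0.0176 and 0.00582), and Mki67 in 1 of 11, with no filter on low counts (edgeR, adjusted p = 0.00389). Among the 11 settings, leaving out control IgG pool 1 or pool 2 repeats the main fit, which held neither. Of 59 ATV-CD98hc medium cells 2 had Mki67 and 0 of 37 control IgG cells. The median depth of the ATV-TfR medium cells (7605 UMIs) was above that of the negative cells (3571 UMIs).

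With sums of at least 10 cells the comparison was also possible in ATV-CD98hc (1 negative sum, 2 positive) and control IgG (1 and 1, both of pool 2). edgeR called 0 of 3540 genes in each (0.0%), with 253 and 306 genes at an unadjusted p under 0.05. The difference of positive minus negative between ATV-TfR and ATV-CD98hc had 0 calls (241 unadjusted), that between ATV-CD98hc and control IgG 0 (292 unadjusted), and that between ATV-TfR and control IgG 63 (1.78%, with 1.72% higher and 0.0565% lower). Of the 63, 1 is a gene of the rule. None of the 63 was at least 4 times higher in T and NK cells than elsewhere, as 12.8% of the genes tested are. The control IgG arms are 1 sum each, with their spread taken from the other groups.

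Between treatments the cells of a pool were summed over bins. At least 20 cells were found in both pools of each ATV but only in pool 2 of control IgG (30 cells), so control IgG entered with 1 pool and its spread was taken from the others. ATV-TfR and ATV-CD98hc differed in 10 genes (0.19% of 5277 tested), 5 higher (0.0948%) and 5 lower (0.0948%) in ATV-TfR. None of them was at least 4 times higher in T and NK cells than elsewhere, a kind that makes up 10.3% of the genes tested. Lower in ATV-TfR were the endothelial genes Slco1a4 (−2.46 ± 0.39 on the log2 scale, edgeR, adjusted p = 0.0138) and Ly6c1, the choroid plexus gene Ttr, and 2 genes of the rule. Among those higher were the microglial genes C1qa and C1qc, Cd74 of antigen-presenting cells, and Stmn1. The UMIs of the first 3 came from few cells, with 156 of 158 Cd74, 40 of 66 C1qa and 23 of 48 C1qc UMIs of ATV-TfR in 1 cell each, and a UMI in 3, 5 and 5 of its 83 cells. The list of monocyte or dendritic cell markers had 413 UMIs in the ATV-TfR negative bin, 367 of them in 1 cell. With sums of at least 5 cells, which add control IgG pool 1 to the fit, Stmn1 was the 1 gene called, and DESeq2 called 0 (33 at an unadjusted p under 0.05). Of the 15 T cell receptor signalling, 14 NK, 12 cytotoxic and 9 naive genes tested, 0 passed in either direction, with list medians of 0.05, 0.34, 0.32 and −0.38 against 0.02 over all genes.

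Summed over bins, Stmn1 was called higher in ATV-TfR than in both other treatments, with most of its UMIs in few cells. The 12 medium and high cells of ATV-TfR held 121 of its 154 UMIs (1442 CPM), 43 of them in 1 cell. The other 71 cells were at 119 CPM, with 20 of 33 UMIs in 1 cell, and the 85 negative and low cells of ATV-CD98hc at 56.6 CPM. Without the top cell of each these levels were 47.8 and 49.8 CPM. The 63 medium and high cells of ATV-CD98hc were at 163 CPM, with 27 of 45 UMIs in 1 cell. Without their top cells the medium and high levels were 1081 CPM in ATV-TfR and 68.8 CPM in ATV-CD98hc. By pool Stmn1 had 432 and 419 CPM in the ATV-TfR pools, 120 and 78.9 CPM in the ATV-CD98hc pools and 48.9 and 32.0 CPM in the control IgG pools, with no overlap, from 10 and 10, 17 and 10, and 1 and 3 cells. The difference was 2.05 ± 0.29 from ATV-CD98hc (edgeR, adjusted p = 0.00456) and 3.80 ± 0.53 from control IgG pool 2 (edgeR, adjusted p = 0.00217). It was still called with control IgG pool 1 included (edgeR, adjusted p = 0.0474 and 0.0162) but not in DESeq2 (adjusted p = 0.919 and 0.119), and the call against ATV-CD98hc was also lost in cells with at least 4 of the 8 rule genes (edgeR, adjusted p = 0.0851). In cells with at most 5 UMIs of other cells it was at 498, 122 and 36.7 CPM in the 3 treatments. Mki67, with a UMI in 5 of 83 ATV-TfR and 4 of 148 ATV-CD98hc cells, did not pass (1.89 ± 0.77, edgeR, adjusted p = 0.780), and 1 of 7 tested cell division genes, Stmn1, was called in each comparison, where 0.19% and 0.455% of all genes were called. The list median against ATV-CD98hc was 1.89, with 0.02 over all genes.

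Against control IgG, 24 genes were called in ATV-TfR (0.455% of 5277, with 0.341% higher and 0.114% lower) and 35 in ATV-CD98hc (0.663%, with 0.417% higher and 0.246% lower). The comparisons share the control pool. With sums of at least 5 cells, which add control IgG pool 1, the calls came to 1 for ATV-TfR and 8 for ATV-CD98hc, none of them at least 4 times higher in T and NK cells, so every call of an effector or NK gene given here was lost. Effector and NK genes were among those higher, with 1 of 12 cytotoxic and 2 of 14 NK genes in ATV-TfR and 2 of 12 and 1 of 14 in ATV-CD98hc. Gzma, the gene of granzyme A, had 994 and 761 CPM in the ATV-TfR pools, 285 and 1617 CPM in the ATV-CD98hc pools and 8.00 CPM in control IgG pool 2 (log2 differences 6.76 ± 1.16 and 6.81 ± 1.16, edgeR, adjusted p = 0.00938 and 0.00414). Control IgG pool 1, with 7 cells, had 2936 CPM, all 60 UMIs in 1 cell, and with it the differences were −0.27 and −0.18 (edgeR, adjusted p = 0.983 and 1). The Gzma UMIs of the other pools came from 8, 4, 7 and 7 cells. By the subset genes, control IgG had 3 NK cells, all in the negative library of pool 2. The part of the mix of T and NK cells in the differences of effector and NK genes was not tested.

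Ccl5, a chemokine gene of the rule, was at 3699 and 3090, 3261 and 3922, and 1104 CPM in the same pools, and at 7830 CPM in control IgG pool 1. Its level was highest in control IgG pool 1 and lowest in pool 2. Being a gene of the rule, Ccl5 is given as a description and lends no weight to the values of Gzma. In the comparisons with control IgG, DESeq2 called no gene outside the rule. Gzmb, the gene of granzyme B, was called in ATV-CD98hc (4.43 ± 0.98, edgeR, adjusted p = 0.0363) and not in ATV-TfR (3.47 ± 1.06, edgeR, adjusted p = 0.225), at 177 and 165, 140 and 592, and 16.0 CPM, with 196 CPM in control IgG pool 1. In ATV-CD98hc its UMIs came from 12 of 148 cells, 62 of 161 from 1 cell, without which the level was 174 in place of 279 CPM. With control IgG pool 1 the ATV-CD98hc difference was 3.01 ± 0.93 and did not pass (edgeR, adjusted p = 0.445). Over 14 alternative settings for each, Gzmb was not called in 4 in ATV-CD98hc and was called in 7 in ATV-TfR, so the calls do not set the ATVs apart. Among these settings, sums of at least 10 cells and control IgG pool 1 left out repeat the main fit, which did not hold that pool. A test of Gzmb between the ATVs did not pass (−0.97 ± 0.45, edgeR, adjusted p = 0.838).

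Klra4, an NK receptor of the Ly49 family, had 0 UMIs in both control IgG pools and 39 and 47, and 35 and 36 in the ATV pools. Against a floor of 3 UMIs over the control group its level was 11.5-fold in ATV-TfR and 5.97-fold in ATV-CD98hc. The floor takes UMIs as independent, whereas those of Klra4 came from 4, 2, 5 and 5 cells. These folds are thus not lower bounds. Reads of near-identical Ly49 genes may be split between them, and with control IgG pool 1 Klra4 did not pass (edgeR, adjusted p = 0.0977 and 0.102). Klrk1, the gene of the activating receptor NKG2D, was at 359 and 354 CPM in ATV-TfR, 243 and 332 CPM in ATV-CD98hc, and 147 and 88.0 CPM in control IgG, below all ATV pools (ATV-TfR minus pool 2, 2.11 ± 0.43, edgeR, adjusted p = 0.0286, and 0.166 with pool 1). Fcer1g and Lgals1 were called higher in ATV-TfR, and Klra7 higher and Cd163l1, a gene of gamma delta T cells, lower in ATV-CD98hc. With control IgG pool 1 these calls were lost too (edgeR, adjusted p = 0.193, 0.245, 0.984 and 0.159). Cd163l1 had 0 and 21 UMIs in the control IgG pools, 15 and 1 in the ATV-TfR pools and 0 in both ATV-CD98hc pools.

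**Figure D5:**
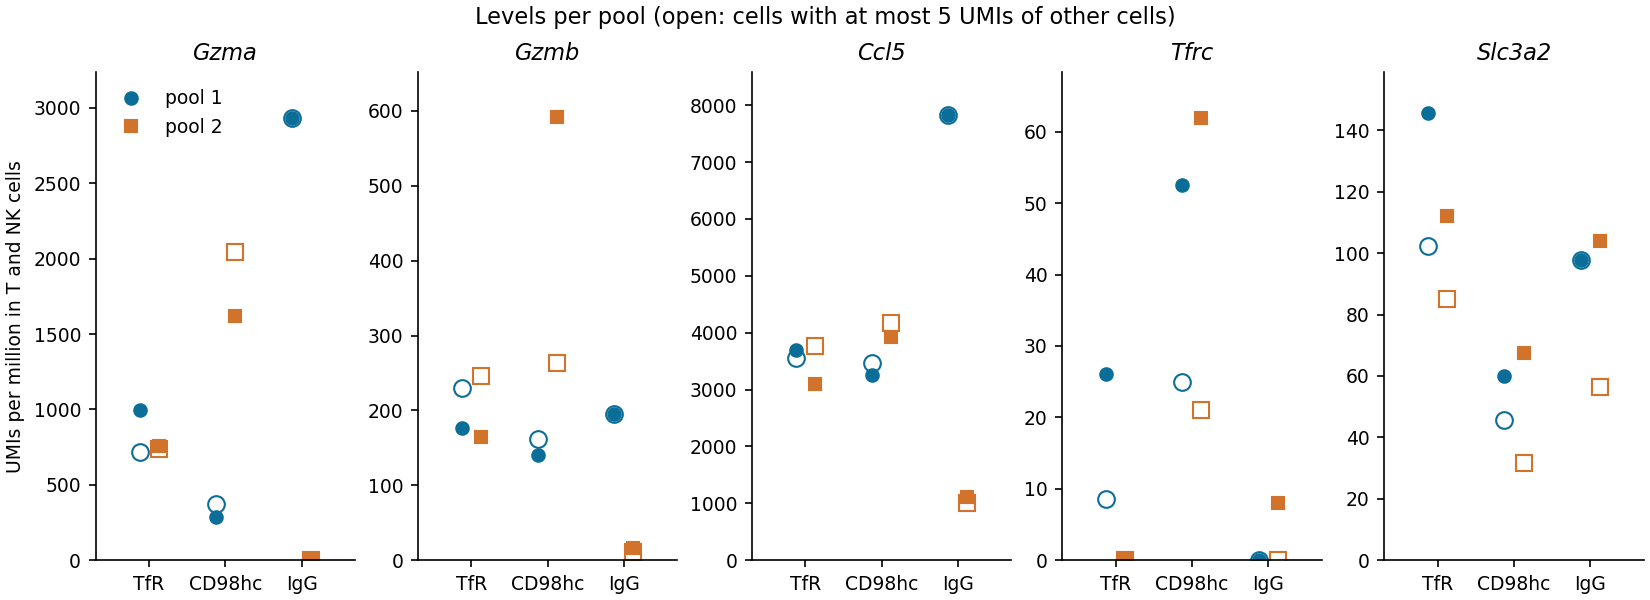
Level of 5 genes in the T and NK cells of each pool (y axis, CPM, linear) by treatment (x axis). Filled circles and squares are pools 1 and 2, and open symbols are their cells with at most 5 UMIs of other cells. Control IgG pool 1 (7 cells) has the highest Gzma of all pools and pool 2 (30 cells) the lowest. Ccl5, a gene of the rule, is shown as a description only. Slc3a2 lies at 112 CPM or more in ATV-TfR and at 67.6 CPM or less in ATV-CD98hc, whose mice are CD98hc mu/hu KI.

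The other calls against control IgG were of genes less than 4 times higher in T and NK cells, 18 of 24 in ATV-TfR (75.0%) and 29 of 35 in ATV-CD98hc (82.9%), against 89.7% of the genes tested. Of each count of calls 3 are genes of the rule. Of 6 endothelial markers outside the rule, 3 were called higher in ATV-CD98hc and 0 in ATV-TfR. Mgp, a gene of vessel wall and meningeal cells, was lower (82 UMIs in control IgG pool 2, 80 of them in cells with more than 5 UMIs of other cells, and 0 and 4, and 1 and 0, in the ATV pools). In cells with at most 5 UMIs of other cells, 14 of 32 calls in ATV-TfR (1.01% of 3153 genes called) and 8 of 14 in ATV-CD98hc (0.444%) were of genes at least 4 times higher in T and NK cells, as are 473 of the 3153 tested, with Gzma, Gzmb, Klra4 and Klrk1 among them in both comparisons. Of these 32 and 14 calls, 2 and 1 are of genes of the rule. They again rest on control IgG pool 2. The part of RNA from other cells in the remaining calls was not tested.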

How the data were processed

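The authors deposited 1 table of raw UMI counts per gene and barcode for all 23 libraries, with gene symbols and a library number on each barcode. It names Cell Ranger 7.1.0, per the file headers, and the submitters' processing notes list Seurat 4 and 5 and the builds mm10 and GRCm38 without their roles. Cell calling before deposit is not given in the sources used here. Groups were taken from the labels. The members, gene lists and named genes were chosen with earlier results of these data known.

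Of 265025 barcodes, 249715 passed the filters. Shares were tested on the natural-log odds with 0.5 cells added, by exact permutation of bin labels within a treatment or of treatment labels within bins, 2-sided, with Benjamini-Hochberg adjustment over 3 tests. Exact binomial and Poisson intervals (95%) and floors (3 counts) cover counting error only. Raw counts of the T and NK cells were summed per pool and bin status (negative or positive) or per pool, using sums of at least 20 cells, and tested with edgeR 4.0.16 (quasi-likelihood, TMM, R 4.3.3) at an adjusted p below 0.05. The main fits held 5 sums with 2 residual degrees of freedom. With sums of at least 10 cells the fit over bins held 9 sums with 3. With sums of at least 5 cells there were 11 sums with 5 over bins and 6 with 3 between treatments. The replicate block and the fits with an ATV pool left out had 1 residual degree of freedom. CPM were computed from the same sums. Genes named are, per comparison, up to 10 called genes in each direction that were at least 4 times higher in T and NK cells than in other barcodes and up to 4 others, and a list of receptor, subset and effector genes. A few named genes are not reported here. Gene lists are given by counts and medians. Stmn1 and Hist1h1b were described by bin after their values were seen. Scrublet (scanpy 1.11.5) ran per library. Where its own threshold marked under 0.5% of barcodes, in 8 libraries, the 94th percentile of its score was used. Doublets stayed in unless stated. The scripts were tested on simulated data. Alternatives were DESeq2 1.42.0, other size factors, no filter on low counts, stricter membership, thinning to 800 UMIs, other bases, pools left out and pairing. The bins of a pool share its animals, per the labels, so replicate numbers pair libraries within a treatment and not between treatments. Coordinates are those of GENCODE M21 on GRCm38.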

Additional observations from a re-analysis of the deposited data

Results flagged for a closer look

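For 63 genes the difference between the positive and negative sums of ATV-TfR and that between the sums of control IgG pool 2 were not the same (edgeR interaction, sums of at least 10 cells, 61 higher in ATV-TfR and 2 lower, 1.78% of 3540 genes). 1 of them is a gene of the selection rule. None of these was at least 4 times higher in T and NK cells than in other barcodes, as 12.8% of the genes tested are. Gabrb1 was among those higher, with 22 UMIs in the control IgG negative sum and 0 in the positive sums, against 0 in both negative sums and 32 and 58 in the positive sums of ATV-TfR. Of 7 astrocyte markers outside the rule, 6 were called higher. Mgp and Marcks were lower. The control IgG arm has 1 sum in each status, both of pool 2, so its spread was taken from the other groups and the difference has no replicate check in control IgG. The part of astrocyte RNA in these calls was not tested.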

How the results depend on the processing

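The fall of the T and NK share over bins in ATV-TfR (main slope −1.05) was −1.29 without the high bins (exact permutation, adjusted p = 0.0667), −0.89 in female cells, −0.35 with endothelial barcodes out of the base, and −1.08 to −1.01 with a pool left out, none of which passed. With 1 pool the smallest p of this design is above 0.05. Without the high bins both negative libraries of ATV-TfR had the highest shares and both medium ones the lowest. This order gives the smallest p of that setting, so it could not pass alone after adjustment. The ATV-CD98hc slope (−0.66) no longer passed without the comparison with genes of other cells (−0.53), with the replicate block that permutes bins within pools (−0.66, adjusted p = 0.0521), in female (−0.68) or male cells (−0.22), without the high bins (−0.11) or with a pool left out (−0.68 to −0.64), and was 0.32 with endothelial barcodes out of the base. The control IgG slope was 0.45 in male cells. Differences from control IgG were 0.22 (ATV-TfR) and 0.89 (ATV-CD98hc) on that base, and 0.058 for ATV-CD98hc without the high bins. The ratio to B cells in control IgG changed sign with at least 4 of 8 genes (0.26), in thinned barcodes (0.28), with at most 5 UMIs of other cells (0.077) and over its pools left out (−0.81 to 1.35). The NK slope was −0.17 in ATV-TfR cells with at most 5 UMIs of other cells, and −0.57 to 0.97 in ATV-CD98hc with a pool left out.

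The count of 52 genes between positive and negative bins of ATV-TfR was 110 and 120 with sums of at least 10 and 5 cells, 22 in DESeq2, 166 with no filter on low counts, 8 with doublets removed, and 46 to 111 with a pool left out. With sums of at least 5 cells, edgeR called 1 gene in ATV-CD98hc and 5 in control IgG, and in the differences from control IgG 103 in ATV-TfR and 10 in ATV-CD98hc. Between ATV-TfR and ATV-CD98hc the 10 genes became 4 with RLE size factors, 0 in DESeq2 (33 at an unadjusted p under 0.05) and with at least 4 of 8 genes, 78 with no filter, 22 with doublets removed, 60 with the replicate block, 1 with sums of at least 5 cells, 2 in positive bins alone and 1 to 55 with a pool left out. Against control IgG, ATV-TfR had 1 call in DESeq2, 109 with no filter, 9 with at least 4 of 8 genes, 85 with the replicate block, 1 with sums of at least 5 cells and 24 to 103 with a pool left out. ATV-CD98hc had 1, 110, 81 with the replicate block, 14 with at most 5 UMIs of other cells, 8 with sums of at least 5 cells and 35 to 101 with a pool left out. The counts thus moved by more than 1.5 times with most settings, and the cause was not tested. The replicate block and the fits with an ATV pool left out had 1 residual degree of freedom. Between treatments, sums of at least 10 cells and control IgG pool 1 left out repeat the main fit. For the bins of ATV-TfR, leaving out either control IgG pool repeats it. Replicate numbers do not pair pools between treatments.

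Gzma reversed with control IgG pool 1 included (−0.27 for ATV-TfR and −0.18 for ATV-CD98hc). Gzmb against control IgG was called in 7 of 14 settings in ATV-TfR and lost in 4 of 14 in ATV-CD98hc, Stmn1 between the ATVs was lost in DESeq2 and with at least 4 of 8 genes, and Stmn1 between bins of ATV-TfR was called in 5 of 11. Between the ATVs, Gzma was 0.36 with the replicate block, 0.67 in positive bins alone and −0.86 to 1.62 with a pool left out, and Gzmb −1.76 to 0.29 with a pool left out. Against control IgG in ATV-TfR, Slc7a5 was 0.21 with at least 4 of 8 genes and Tfrc −3.83 to 1.70 with a pool left out. Not run for want of sums of 20 cells were the bin comparison with at least 4 of 8 genes, the replicate block, at most 5 UMIs of other cells, the high bin alone or without ATV-TfR pool 1, and the treatment comparison in negative bins alone. The number of T and NK cells, 0 to 49 per library, limits every comparison.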
